A study of Arabidopsis thaliana with 48 samples.

Results

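In rosette leaves of Arabidopsis thaliana, 68 transcripts moved in opposite directions in rbohD and WT plants after 2 min of excess light on a single leaf. They were selected on their changes at 2 min among 13766 transcripts, of 32833 genes listed, whose mean normalized count over the 12 libraries was at least 50 in each of 4 tables. For every gene and table the change at 2 min was the mean log2(normalized count + 1) of the 3 libraries at 2 min minus that of the 3 libraries at 0 min. A member had a change of at least 0.7 in one direction in both leaves of rbohD and of at least 0.7 in the other direction in both leaves of WT. The 44 members that were higher at 2 min in rbohD and lower in WT are called the rbohD-high group, and the 24 that were lower in rbohD and higher in WT the rbohD-low group.

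The samples were local and systemic leaves of rbohD knockout plants and of WT plants (Col), 4 to 5 weeks old, grown at 23°C with 8 h of light per day at 50 µmol m-2 s-1. The local leaf was exposed to 2000 µmol m-2 s-1 for 0, 2, 4 or 8 min, and the systemic leaf was an untreated leaf of the same plants. Each library was a pool of leaves from many plants, so no value belongs to 1 plant. The 48 libraries fell into 16 groups of 3 replicates and 4 tables of 12 libraries (rbohD local, rbohD systemic, WT local and WT systemic leaves), and the labels name the rbohD and WT libraries as separate experiments.

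RBOHD, an NADPH oxidase at the cell surface, releases superoxide into the apoplast, and plants without it do not carry the reactive oxygen wave by which a stressed leaf signals to distant leaves. Excess light drives a leaf beyond its capacity for photosynthesis, warms it and raises the amount of hydrogen peroxide in it. Chaperones such as HSP70 and HSP90 refold damaged proteins, and their transcripts are among the quickest to respond to heat and to oxidative stress. The phenylpropanoid pathway makes lignin precursors and flavonoids, which shield leaves against light. GI and ELF3 belong to the circadian clock, which sets the daily course of a large share of leaf transcripts.

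The recovered read totals ran between 13996572 and 18526191 reads in rbohD local, 13412657 and 21834017 in rbohD systemic, 18311884 and 28675623 in WT local and 20197316 and 26757890 in WT systemic leaves. RBOHD transcripts were lower in all 3 rbohD libraries than in all 3 WT libraries in both leaves at every time, with means in local leaves of 24.6, 38.5, 23.8 and 23.2 CPM (recovered reads scaled to one library total) in rbohD and 59.1, 88.9, 57.5 and 93.7 CPM in WT at 0, 2, 4 and 8 min. RBOHD reads were thus reduced in the libraries labelled rbohD at 2 min as at the other times, but not absent. RBCS1A, 1 of 5 mesophyll markers, had at least 191937 normalized counts in every library, whereas the seed markers CRA1 and OLEO1 reached at most 30.1 and 4.08 normalized counts. At 2 min 3 of the 5 mesophyll markers were lower by at least 0.7 on the log2 scale in rbohD local leaves and 1 in WT local leaves. In either systemic leaf 0 of the 5 were. Of 3 epidermis markers 1 was lower by that size in rbohD local leaves and 1 in each WT leaf. Of 3 root markers, PHT1;2 reached at most 0.826 normalized counts, PYK10 had between 7.34 and 303, and SHR had between 56.9 and 292 and so the required mean. In bulk leaves a lower level can mean fewer cells of a type or less RNA per cell, and these cannot be told apart.

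Because the values at 0 and 2 min chose the members, those changes are given as a description, without a test. Of the 13766 transcripts, 684 changed by at least 0.7 in all 4 tables, of which 266 were higher in all 4, 350 were lower in all 4, and 68 were the members. The members made up 0.494% of the 13766 transcripts, and no transcript changed by 0.7 in opposite directions in the local and systemic leaves of one genotype. Opposite signs between the genotypes in both leaves, at any size, were seen for 3205 transcripts. In the rbohD-high group the median change at 2 min was 1.09 and 1.30 in local and systemic leaves of rbohD, against -1.06 and -1.12 in those of WT. In the rbohD-low group it was -1.32 and -1.31 in local and systemic leaves of rbohD, against 1.06 and 1.203 in those of WT. The 3 libraries at 2 min did not overlap the 3 at 0 min for any member in any table, in the direction of its group. Non-overlap in one direction was common among the 13766 transcripts, at 40% above and 36.6% below in rbohD local, 36.3% above and 34.3% below in rbohD systemic, 35.8% above and 38.2% below in WT local, and 32.8% above and 36.2% below in WT systemic leaves.

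Just inside the threshold stood BGLU18, whose smallest change was 0.705 in size, and WNK6, at 0.703. Just outside stood CM1, a chorismate mutase, at 0.695, and NRAMP4, a metal transporter, at 0.694. The count of members depended on the scaling of the libraries. When each library was rescaled to the mean total of its table, the median change at 2 min over the 13766 transcripts shifted by 0.06 in local and -0.02 in systemic leaves of rbohD and by 0.17 and 0.12 in those of WT, and 66 members were found, 32 rbohD-high and 34 rbohD-low. Of the original 68 members 51 were among them, and all 68 kept their sign in every table. The 17 that dropped below the threshold were all in the rbohD-high group, among them GI, BGLU18, AT3G09440, CLPB4 and BOB1, and the smallest change among them was then 0.532 in size.

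**Figure D1:**
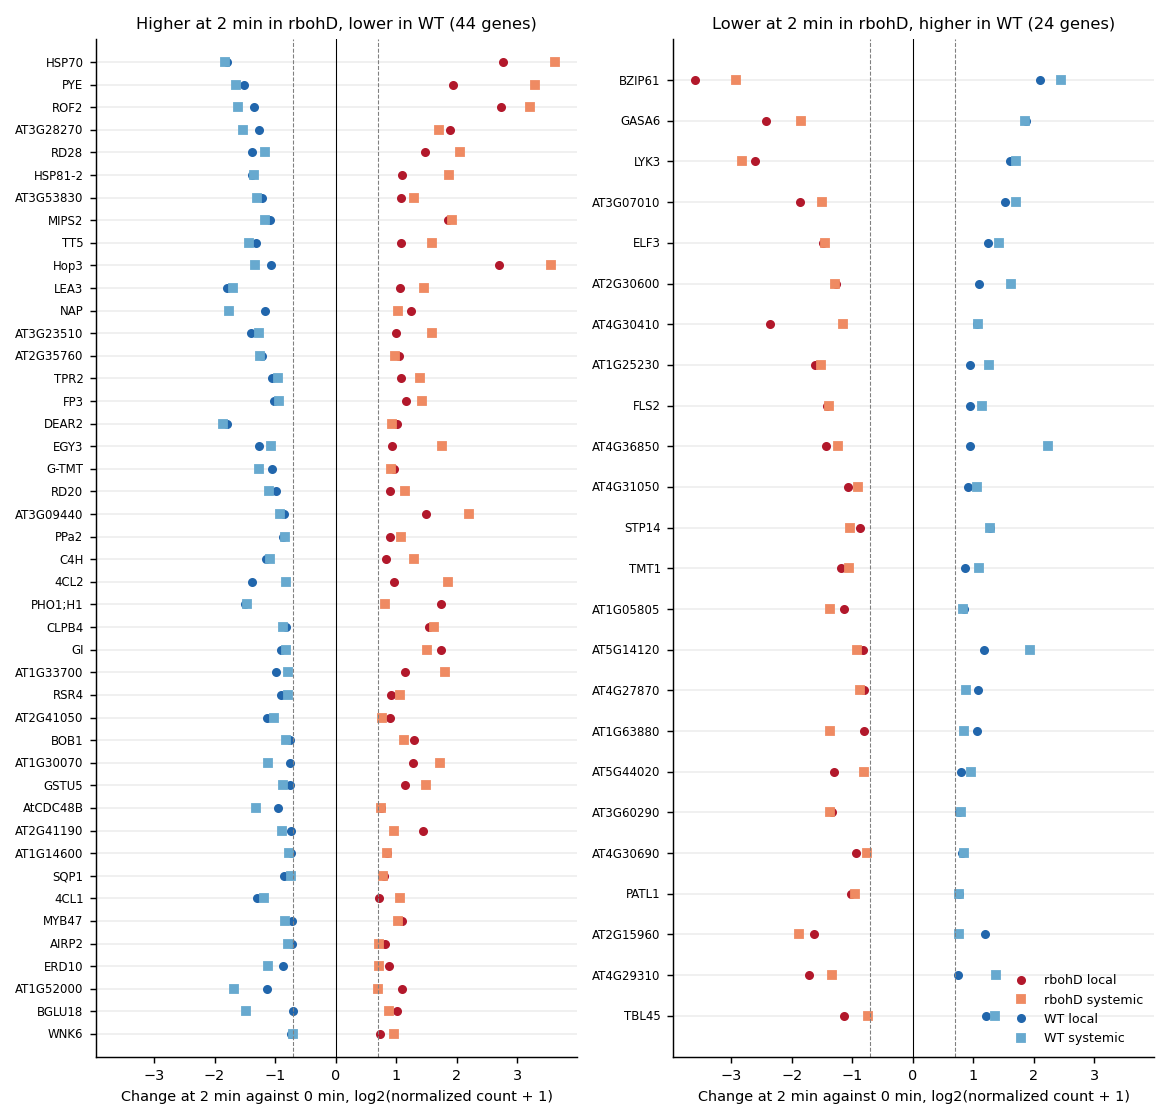
Change at 2 min against 0 min, as the difference of mean log2(normalized count + 1), of the 44 rbohD-high (left) and 24 rbohD-low transcripts (right), with 1 point for each table (rbohD red, WT blue, local round, systemic square) and dashed lines at 0.7 and -0.7. HSP70 reached 3.63 in rbohD systemic leaves against -1.82 in WT systemic leaves, and BZIP61 -3.60 in rbohD local leaves against 2.10 in WT local leaves.

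HSP70 (AT3G12580, chr3:3991117-3993886, minus strand of the TAIR10.1 assembly) encodes a cytosolic 70 kDa class chaperone that binds unfolded proteins, and had the largest opposite change of the rbohD-high group. HSP70 in rbohD local leaves had normalized counts of 801, 865 and 821 at 0 min, 6086, 5127 and 5818 at 2 min, 7399.6, 7449 and 7670.0 at 4 min and 37329, 37094 and 38402 at 8 min. In WT local leaves HSP70 had 8956, 9370.1 and 9082 at 0 min, 2701, 2565 and 2666 at 2 min, 16396, 14701 and 14918 at 4 min and 59619.5, 59166 and 58187 at 8 min. The rbohD libraries at 2 min were thus above every rbohD library at 0 min and the WT libraries below every WT library at 0 min, while all local libraries at 8 min were the highest of their table. HSP70 in rbohD systemic leaves had 683, 590.1 and 639 at 0 min, 8094, 7695 and 7939.7 at 2 min, 1177, 1304 and 1249.8 at 4 min and 1045, 1059 and 905 at 8 min, against 8102, 5946 and 6121 at 0 min, 1900.3, 1852 and 1894 at 2 min, 5158, 4421 and 5586 at 4 min and 7627, 7092 and 7380.4 at 8 min in WT systemic leaves. There the 2 min libraries were the highest of the rbohD table and the lowest of the WT table. On the log2 scale the changes at 2 min were 2.77 and 3.63 in rbohD local and systemic leaves, against -1.79 and -1.82 in WT.

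ROF2 (AT5G48570, chr5:19690461-19693845, minus strand) encodes an FKBP-type immunophilin of the HSP90 machinery. ROF2 in rbohD local leaves had normalized counts of 241, 214 and 218 at 0 min, 1674, 1289.9 and 1543 at 2 min, 987, 939 and 996 at 4 min and 10547, 9689 and 9933 at 8 min. WT local leaves had 1807, 1944 and 1809 at 0 min, 791, 653 and 736 at 2 min, 1898, 1851 and 1929.6 at 4 min and 14604, 14899 and 14127 at 8 min for ROF2. As for HSP70, the 8 min libraries were the highest in both local tables. ROF2 in rbohD systemic leaves had 171, 167 and 184 at 0 min, 1534, 1607 and 1753 at 2 min, 316, 328 and 364 at 4 min and 233, 266 and 236 at 8 min, against 1495, 1024 and 1038 at 0 min, 398, 359 and 388 at 2 min, 1130.0, 1018 and 1128 at 4 min and 1615, 1494 and 1492 at 8 min in WT systemic leaves. The rbohD systemic libraries at 2 min stood above all others of their table, and the WT systemic libraries at 2 min below all others of theirs. Hop3 (AT4G12400, chr4:7338018-7341363, minus strand), an organizer that joins HSP70 to HSP90, had normalized counts of 82.9, 72.2 and 96.3 at 0 min, 635, 469.5 and 557 at 2 min, 1264, 1158 and 1305 at 4 min and 11415, 10939 and 11593 at 8 min in rbohD local leaves. Hop3 in WT local leaves had 744, 799 and 778 at 0 min, 365, 376 and 369 at 2 min, 2596, 2305 and 2272 at 4 min and 18768, 19829 and 18259 at 8 min. The 2 min libraries lay above those at 0 min in rbohD and below them in WT. For Hop3 in rbohD systemic leaves the values were 71.3, 58.7 and 81.2 at 0 min, 850.0, 828 and 838 at 2 min, 117, 135 and 133 at 4 min and 119, 109 and 109 at 8 min, against 738, 555 and 588 at 0 min, 242, 259 and 238 at 2 min, 376, 364 and 435 at 4 min and 656, 618 and 723 at 8 min in WT systemic leaves. Hop3 overlaps a gene on the opposite strand (AT4G12390, pectin methylesterase inhibitor 1) whose level reached 156% of its own mean in a table, and since the libraries were stranded but the use of strand in counting is not given in the sources used here, its values are uncertain.

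With HSP70, ROF2 and Hop3, 9 of the 44 rbohD-high members encode chaperones or proteins with co-chaperone domains. The others are AT3G09440 (an HSP70 family protein), HSP81-2 (a cytosolic HSP90), CLPB4 (a ClpB-type disaggregase), BOB1 (an HSP20-like chaperone), AT1G30070 (an SGS domain protein) and TPR2 (a tetratricopeptide repeat protein). HSP81-2 has near-identical neighbours in HSP81-3 and Hsp81.4, and TPR2 overlaps an opposite gene at up to 724% of its level, so both are uncertain. In rbohD local leaves the 9 were changed at 2 min by between 1.08 for TPR2 and 2.77 for HSP70, against between -1.79 for HSP70 and -0.75 for AT1G30070 in WT local leaves. A list of 6 heat shock factors and proteins taken from their known roles had 4 with the required mean. HSP70 is 1 of these, a member whose signs the rule fixed. The 3 others, HSFA2, HSP101 and HSP90.1, had opposite signs in the genotypes in both leaves, beside 23.3% of the 13766 transcripts. They missed the rule because their change was under 0.7 in size in at least 1 WT leaf (HSP101 changed by 2.99 in rbohD local against -0.52 in WT local leaves). Of 17 HSP70 and HSP90 genes and co-chaperones, a list made after the members were known, 15 had opposite signs in both leaves. Of these 15, 7 are members, whose signs the rule fixed, and among the 10 other genes of the list 8 had opposite signs.

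The 4 and 8 min libraries entered the rule only through the required mean and not through the changes at 2 min. The change between them was therefore tested (limma on log2(normalized count + 1), two-sided, Benjamini-Hochberg adjusted over all genes tested in the table). The spread in that test came from all 12 libraries of a table, those at 0 and 2 min included. A return from the 2 min change that went on after 4 min would also enter this test, and its part was not tested. Of the 9, 8 rose in rbohD local leaves (median 2.33 over the 9 on the log2 scale) and 9 in WT local leaves (median 1.94 over the 9), whereas the median over all genes tested was 0.00 in rbohD local and -0.01 in WT local leaves. Of the 13766 transcripts 17% rose in rbohD local and 19.9% in WT local leaves. HSP70 rose by 2.33 ± 0.04 (SE) in rbohD local leaves (limma adjusted p = 1.78e-26) and by 1.95 ± 0.04 in WT local leaves (limma adjusted p = 3.53e-20). Of the members, ROF2 showed the largest rise in rbohD local leaves, 3.37 ± 0.06, and Hop3 in WT local leaves, 2.99 ± 0.05, with limma adjusted p = 1.78e-26 and 8.29e-22. TPR2 did not pass the test in rbohD local leaves, at 0.15 ± 0.09, and rose in WT local leaves, by 0.26 ± 0.07. In systemic leaves 0 of the 9 rose and 2 fell in rbohD (HSP70 by -0.31 ± 0.05 and ROF2 by -0.46 ± 0.07), whereas 8 rose and 0 fell in WT. Of the 13766 transcripts 14% rose and 12.9% fell in rbohD systemic leaves, and 22.2% rose and 22.8% fell in WT systemic leaves. edgeR and DESeq2 also called 0 of the 9 higher in rbohD systemic leaves, and of the 9 none had a positive difference with an unadjusted p under 0.05 there. The genotype difference itself, the change from 4 to 8 min in rbohD minus that in WT, was negative and past the threshold for 7 of the 9 in systemic leaves (median -0.33) and positive for 5 of the 9 in local leaves (median 0.21). Both counts are read beside the 21.7% of the 13766 transcripts that were called lower in systemic leaves and the 25.3% called higher in local leaves. The local count was 4 with libraries rescaled (median 0.10) and 4 with no filter. It was 6 by edgeR, 7 on the 4 and 8 min libraries alone, and 4 or 5 with 1 library left out. Of the 10 non-members of the HSP70 and HSP90 list, 10 rose in rbohD local and 9 in WT local leaves, so the local rise was not particular to the members. In systemic leaves 0 of these 10 rose and 1 fell in rbohD, and 2 rose and 1 fell in WT. Their genotype difference was negative for 2 in systemic leaves and positive for 7 in local leaves.

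**Figure D2:**
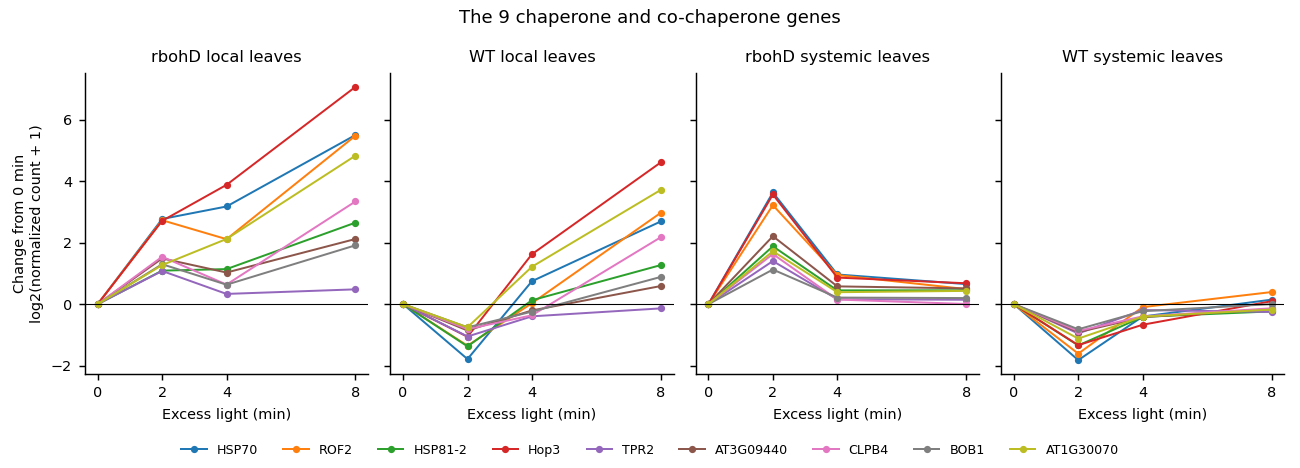
Change from 0 min (difference of mean log2(normalized count + 1), y axis) against time of excess light in min for the 9 chaperone and co-chaperone members, 1 line per gene and 1 panel per table. At 2 min all lines are above 0 in the rbohD panels and below 0 in the WT panels, and at 8 min Hop3 reaches 7.07 in rbohD local and 4.61 in WT local leaves.

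Other members of the rbohD-high group belong to stress proteostasis. EGY3 (AT1G17870, chr1:6149939-6152222, minus strand), a chloroplast homologue of membrane proteases, had normalized counts of 143, 108 and 131 at 0 min, 238, 235 and 250.4 at 2 min, 367, 313 and 355 at 4 min and 2551, 2286 and 2457 at 8 min in rbohD local leaves. EGY3 in WT local leaves had 487, 439.7 and 519 at 0 min, 191, 193 and 212 at 2 min, 864, 786 and 745 at 4 min and 3958, 4272 and 3959.6 at 8 min. EGY3 was highest at 8 min in both local tables, with rises from 4 to 8 min of 2.81 ± 0.08 in rbohD and 2.35 ± 0.07 in WT (limma adjusted p = 3.06e-22 and 4.02e-18). EGY3 in rbohD systemic leaves had 92.8, 95.4 and 113 at 0 min, 346, 343 and 341 at 2 min, 136, 137 and 134 at 4 min and 117, 132 and 124 at 8 min, against 538, 472 and 456 at 0 min, 208, 239 and 249 at 2 min, 397, 369 and 429.8 at 4 min and 261, 231 and 260.0 at 8 min in WT systemic leaves. In systemic leaves EGY3 did not pass the test in rbohD (-0.12 ± 0.09) and fell by 0.67 in WT (limma adjusted p = 1.43e-06), and the genotype difference was 0.55 ± 0.12 (limma adjusted p = 0.000386). AtCDC48B (AT3G53230, chr3:19723350-19727128, plus strand) encodes an AAA-type ATPase of the CDC48 family, which pulls proteins out of complexes. AtCDC48B in rbohD local leaves had normalized counts of 86.2, 75.4 and 72.5 at 0 min, 148, 117 and 131 at 2 min, 187, 162 and 203 at 4 min and 202, 188 and 174 at 8 min. For AtCDC48B in WT local leaves the values were 199, 228 and 196 at 0 min, 88.7, 117 and 115 at 2 min, 228, 213 and 232 at 4 min and 389.5, 405 and 393 at 8 min. The WT libraries at 8 min were the highest of the table, and those of rbohD at 8 min overlapped those at 4 min. AtCDC48B in rbohD systemic leaves had 56.3, 61.8 and 62.6 at 0 min, 106, 110.4 and 89.5 at 2 min, 135, 132 and 108 at 4 min and 46.8, 56.8 and 58.6 at 8 min, against 159, 125 and 139 at 0 min, 60.7, 55.6 and 52 at 2 min, 154, 155 and 169.6 at 4 min and 214, 222 and 180.4 at 8 min in WT systemic leaves. From 4 to 8 min AtCDC48B fell by 1.19 in rbohD systemic leaves (limma adjusted p = 6.37e-09) and rose by 0.36 ± 0.11 in WT systemic leaves (limma adjusted p = 0.0154), and that call was lost without replicate 1 of the WT systemic 4 min libraries (adjusted p = 0.0537) or without replicate 1 or 2 of the 8 min libraries (0.0646 and 0.0823). In local leaves its change was 0.04 ± 0.11 in rbohD and 0.82 ± 0.10 in WT (limma adjusted p = 0.855 and 5.36e-07). The genotype differences of AtCDC48B were -0.78 ± 0.15 in local and -1.55 ± 0.17 in systemic leaves (limma adjusted p = 6.53e-05 and 3.63e-09), and the systemic value was the most negative of all members in those leaves.

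PYE (AT3G47640, chr3:17567126-17569394, plus strand) encodes a basic helix-loop-helix factor that restrains iron uptake and transport genes under iron deficiency. PYE in rbohD local leaves had normalized counts of 226, 249 and 227 at 0 min, 988, 893 and 839 at 2 min, 311, 298 and 284 at 4 min and 271, 279.7 and 244 at 8 min. WT local leaves had 1739, 1616 and 1638 at 0 min, 571, 597 and 573 at 2 min, 609.5, 578 and 674 at 4 min and 1238, 1257 and 1214 at 8 min for PYE. In rbohD only the 2 min libraries stood high, whereas in WT the 2 and 4 min libraries stood low and the 8 min libraries were between these and 0 min. PYE in rbohD systemic leaves had 148, 155 and 128 at 0 min, 1412, 1411 and 1429 at 2 min, 152, 188 and 191 at 4 min and 155, 148 and 156 at 8 min, against 1971, 2115 and 2131 at 0 min, 697, 622 and 656 at 2 min, 610.1, 659 and 637 at 4 min and 1381, 1389 and 1396 at 8 min in WT systemic leaves. There too the 2 min libraries stood above all others in rbohD, and the 2 and 4 min libraries below all others in WT. In rbohD PYE differed between 8 and 4 min by -0.17 ± 0.07 in local and -0.20 ± 0.08 in systemic leaves, and in WT it rose by 1.00 ± 0.05 and 1.13 ± 0.05 (limma adjusted p = 7.81e-13 and 1.86e-13). The rbohD differences did not pass the test (they passed in local leaves without replicate 2 of the 8 min libraries, adjusted p = 0.0479, and after rescaling, 0.0101, and in systemic leaves without replicate 3 at 0 min, 0.0469, or replicate 1 at 4 min, 0.00482). The genotype difference was -1.17 ± 0.09 in local leaves (limma adjusted p = 1.12e-12), the most negative of all members there, and -1.33 ± 0.10 in systemic leaves (limma adjusted p = 5.89e-14).

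Enzymes of the phenylpropanoid pathway formed another set in the rbohD-high group. C4H hydroxylates cinnamate, 4CL1 and 4CL2 activate coumarate with coenzyme A, and TT5 is the chalcone isomerase that leads into flavonoids. At 2 min C4H changed by 0.84 and 1.29 in local and systemic leaves of rbohD, against -1.14 and -1.09 in WT. The changes of TT5 were 1.08 and 1.60 in rbohD, against -1.32 and -1.43 in WT. Of 14 enzymes of the pathway, a list made after the members were known, 11 had the required mean. Of these, 8 had opposite signs in both leaves, 4 of them members, whose signs the rule fixed. Among the 7 non-members 4 had opposite signs, beside 23.3% of all transcripts of the required mean. By at least 0.7, only the 4 members rose and 2 enzymes fell in rbohD local leaves, whereas all 11 fell in WT local leaves. In systemic leaves 9 rose and 1 fell by that size in rbohD, and 10 fell in WT. Of the non-members, 4CL3 changed by 0.26 and 1.82 in local and systemic leaves of rbohD, against -2.28 and -2.29 in WT, and PAL1 by -0.07 and 1.104, against -1.76 and -1.43. From 4 to 8 min C4H rose in both rbohD leaves (0.21 ± 0.03 in local and 0.18 ± 0.03 in systemic) and in WT systemic leaves (0.28 ± 0.05), and TT5 rose in both WT leaves (0.32 ± 0.07 in local and 0.36 ± 0.06 in systemic). 4CL1 and 4CL2 did not pass this test of 8 against 4 min in any table. Of the 13766 transcripts 17% and 14% rose in rbohD local and systemic leaves, and 19.9% and 22.2% in those of WT. The genotype difference in local leaves was positive for 2 of the 4 and negative for 1, beside 25.3% and 21.2% of the 13766 transcripts. In systemic leaves it passed for 0 of the 4, beside 45.9%.

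Another 7 rbohD-high members are known from water deficit and abscisic acid: RD20 (a caleosin), ERD10 (a dehydrin), LEA3 (a late embryogenesis abundant protein), RD28 (an aquaporin), BGLU18 (a glucosidase that releases abscisic acid from its glucose ester), NAP (a NAC factor of leaf senescence) and AIRP2 (a RING ubiquitin ligase). RD28 (AT2G37180, chr2:15617635-15619155, plus strand) in rbohD local leaves had normalized counts of 523, 488 and 515 at 0 min, 1396, 1449 and 1386 at 2 min, 524, 510.4 and 499 at 4 min and 1066, 994 and 1064 at 8 min. RD28 in WT local leaves had 3449, 3179.6 and 3252 at 0 min, 1242, 1262 and 1277 at 2 min, 1880.3, 1934 and 2078 at 4 min and 3062, 3271 and 3179 at 8 min. The rbohD libraries were high at 2 and 8 min, and the WT libraries were low at 2 min. RD28 in rbohD systemic leaves had 580.5, 525 and 549.9 at 0 min, 2397, 2234 and 2305 at 2 min, 638, 598 and 593 at 4 min and 625, 593 and 621 at 8 min, against 4321, 3689.8 and 3488 at 0 min, 1739.5, 1730.3 and 1618 at 2 min, 2254, 2129 and 2207 at 4 min and 2283, 2213 and 2434 at 8 min in WT systemic leaves. RD28 rose from 4 to 8 min in local leaves of rbohD by 1.02 ± 0.05 and of WT by 0.69 ± 0.04 (limma adjusted p = 1.15e-16 and 1.93e-11) and did not pass the test in either systemic leaf.

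LEA3 (AT1G02820, chr1:623656-624567, minus strand) in rbohD local leaves had normalized counts of 2146, 2167 and 2000.5 at 0 min, 4546, 4423 and 4179 at 2 min, 3259.8, 3187 and 3264 at 4 min and 3033, 2883 and 3137 at 8 min. LEA3 in WT local leaves had 6106, 5793 and 5923 at 0 min, 1730.4, 1627 and 1760.5 at 2 min, 7204, 6874 and 6887 at 4 min and 4911, 4957 and 4836 at 8 min. The WT libraries at 2 min were the lowest of their table, and the rbohD libraries at 2 min were the highest of their table. LEA3 in rbohD systemic leaves had 1424, 1480.0 and 1423 at 0 min, 3940.0, 3869 and 4129 at 2 min, 1959, 2029 and 2081 at 4 min and 1808, 1785 and 1859 at 8 min, against 5713, 5575 and 5810.0 at 0 min, 1890.2, 1638 and 1771 at 2 min, 6247, 6631 and 6731 at 4 min and 3832, 3945 and 3942 at 8 min in WT systemic leaves. Later, between 4 and 8 min, LEA3 fell by 0.15 in rbohD systemic leaves and by 0.74 in WT systemic leaves, a genotype difference of 0.59 ± 0.06 (limma adjusted p = 2.48e-10). BGLU18 (AT1G52400, chr1:19514989-19518411, plus strand) in rbohD local leaves had normalized counts of 605, 498 and 581 at 0 min, 1205, 1092 and 1091 at 2 min, 2009, 1805 and 1796 at 4 min and 983, 2334 and 1232 at 8 min. BGLU18 in WT local leaves had 1528, 1372 and 1241 at 0 min, 810.2, 977 and 757 at 2 min, 1845, 1410.2 and 1763 at 4 min and 750.2, 792 and 854 at 8 min. Replicate 2 of the rbohD local 8 min libraries, at 2334, stood apart from the other replicates of that time. BGLU18 in rbohD systemic leaves had 945, 867 and 825 at 0 min, 1705, 1652 and 1529.6 at 2 min, 1602, 1557 and 1670.2 at 4 min and 1174, 858 and 957 at 8 min, against 2853, 2520.5 and 1982 at 0 min, 812, 925 and 883 at 2 min, 1395, 1285 and 1234 at 4 min and 862, 831 and 869 at 8 min in WT systemic leaves. The genotype difference from 4 to 8 min in local leaves was 0.66 ± 0.22 (limma adjusted p = 0.0142), and it became 0.30 (adjusted p = 0.0882) without that library. Of the 7, 3 fell and 0 rose from 4 to 8 min in rbohD systemic leaves and 4 fell and 0 rose in WT systemic leaves, beside 12.9% and 22.8% of the 13766 transcripts that fell. In local leaves 2 rose and 2 fell in rbohD, and 1 rose and 4 fell in WT. Beside these, 17% of the 13766 transcripts rose and 14.7% fell in rbohD local leaves, and 19.9% rose and 24.5% fell in WT local leaves. The fall of BGLU18 in rbohD local leaves (-0.40) was lost with no filter (limma adjusted p = 0.132), by edgeR (0.0675), by DESeq2 (0.542) and without several single libraries.

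AT3G28270 (chr3:10538005-10540070, plus strand), a putative transmembrane protein of the DUF677 family, was also among the 5 largest opposite changes of the group. AT3G28270 in rbohD local leaves had normalized counts of 631, 669 and 645 at 0 min, 2315, 2497 and 2393 at 2 min, 1709, 1591 and 1647 at 4 min and 1298, 1578 and 1436 at 8 min. The values of AT3G28270 in WT local leaves were 3226, 3099.8 and 2959.7 at 0 min, 1386, 1285 and 1213 at 2 min, 3111, 3058 and 3202 at 4 min and 2907, 2953 and 3008 at 8 min. In WT only the 2 min libraries stood low, and in rbohD the 2 min libraries stood highest. AT3G28270 in rbohD systemic leaves had 361, 467 and 471 at 0 min, 1377, 1299.6 and 1538 at 2 min, 719, 719 and 815 at 4 min and 617, 632 and 573 at 8 min, against 2603, 2347 and 2759 at 0 min, 920.3, 870.4 and 875 at 2 min, 2568, 2614 and 2723 at 4 min and 1879, 1947 and 2029.7 at 8 min in WT systemic leaves. From 4 to 8 min AT3G28270 fell in both systemic leaves, by 0.30 in rbohD and 0.43 in WT (limma adjusted p = 0.000706 and 7.09e-07). It also fell in rbohD local leaves (-0.20), a call lost without replicate 1 of the 8 min libraries (limma adjusted p = 0.0515). The genotype difference in local leaves passed the limma test only after rescaling (adjusted p = 0.0131) or without replicate 2 of the rbohD local 8 min libraries (0.0271). The rest of the rbohD-high group held regulators (DEAR2, a DREB-type repressor; MYB47; AT1G14600), transporters (PHO1;H1, a phosphate exporter homologue; AT2G41190; AT2G41050), and enzymes, among them G-TMT, which makes tocopherols, MIPS2, the first enzyme of inositol synthesis, and RSR4, of vitamin B6 synthesis.

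GI (AT1G22770, chr1:8061751-8067790, plus strand), an evening-phased clock protein, was in the rbohD-high group. GI in rbohD local leaves had normalized counts of 514, 504 and 482 at 0 min, 1705, 1648 and 1689.5 at 2 min, 633, 616 and 620.2 at 4 min and 641, 767 and 726 at 8 min. GI in WT local leaves had 1341, 1364 and 1403 at 0 min, 726, 736 and 739 at 2 min, 1036, 1009.9 and 1016 at 4 min and 1617, 1638 and 1635 at 8 min. The 2 min libraries were the highest of the rbohD table and the lowest of the WT table. For GI in rbohD systemic leaves the values were 458, 465 and 438 at 0 min, 1275, 1266 and 1326 at 2 min, 367, 373 and 386 at 4 min and 478, 492 and 474 at 8 min, against 1172, 1315 and 1295 at 0 min, 746, 714 and 689 at 2 min, 839.5, 823 and 908 at 4 min and 1471, 1450.2 and 1384 at 8 min in WT systemic leaves. GI rose from 4 to 8 min by 0.19 ± 0.05 in local and 0.36 ± 0.05 in systemic leaves of rbohD (limma adjusted p = 0.0077 and 5.08e-07), against 0.68 ± 0.04 and 0.74 ± 0.05 in WT (limma adjusted p = 7.82e-12 and 3.93e-10). The rbohD local call was lost without replicate 2 of the 8 min libraries (adjusted p = 0.0827) and after rescaling (0.0935). The genotype difference in local leaves was -0.49 ± 0.07 (limma adjusted p = 2.97e-07). ELF3 (AT2G25930, chr2:11058944-11063324, plus strand), a scaffold of the evening complex that represses growth and clock genes at night, was in the rbohD-low group. ELF3 in rbohD local leaves had normalized counts of 92.8, 89.6 and 118 at 0 min, 30.5, 38.9 and 36.5 at 2 min, 51.4, 61.2 and 77.6 at 4 min and 103, 107 and 87.7 at 8 min. ELF3 in WT local leaves had 46.8, 61.7 and 45.9 at 0 min, 130.4, 117 and 118 at 2 min, 63.4, 58.4 and 57.1 at 4 min and 93.2, 104 and 67.1 at 8 min. ELF3 was thus lowest at 2 min in rbohD and highest at 2 min in WT. ELF3 in rbohD systemic leaves had 105, 122 and 122 at 0 min, 39.1, 46.1 and 40.4 at 2 min, 69.4, 82.6 and 68.3 at 4 min and 117, 112 and 116 at 8 min, against 69.9, 46.2 and 65.9 at 0 min, 156, 151 and 181 at 2 min, 43.2, 65.9 and 51.6 at 4 min and 80, 86.7 and 121 at 8 min in WT systemic leaves. From 4 to 8 min ELF3 rose in all 4 tables, by 0.65 ± 0.16 in rbohD local, 0.64 ± 0.13 in rbohD systemic, 0.54 ± 0.15 in WT local and 0.83 ± 0.18 in WT systemic leaves (limma adjusted p = 0.00224, 0.000226, 0.00836 and 0.000725). The WT local call was lost without replicate 2 of the 8 min libraries (adjusted p = 0.0692).

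Of 14 central clock genes, 12 had the required mean and 5 of these had opposite signs between the genotypes in both leaves. Of the 5, GI and ELF3 are members, whose signs the rule fixed, and among the 10 others 3 had opposite signs, a share near the 23.3% of all 13766 transcripts. At 2 min, members included, 9 of the 12 rose by at least 0.7 in each rbohD leaf and 6 in each WT leaf. By that size 1 fell in rbohD local, 2 in rbohD systemic and 1 in each WT leaf. Of the 13766 transcripts, 3458, 2584, 2523 and 1926 changed by that size in either direction in rbohD local, rbohD systemic, WT local and WT systemic leaves. LHY, a morning-phased MYB repressor, averaged 37.0, 794.5, 95.6 and 85.9 CPM in rbohD local leaves, against 456, 1142, 292 and 592 CPM in WT local leaves, at 0, 2, 4 and 8 min. CCA1, its close partner, averaged 188, 658, 248 and 239.8 CPM in rbohD local leaves, against 445, 921, 389 and 585 CPM in WT local leaves. Both were highest at 2 min in either genotype, and all rbohD libraries were below all WT libraries at every time. The methods of the study place all experiments at the same time of the morning, the hour of each library is not in the labels, and its part in the changes of the members at 2 min was not tested.

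In the rbohD-low group BZIP61 (AT3G58120, chr3:21520974-21523518, minus strand), a basic leucine zipper factor, had the largest opposite change of all 68. BZIP61 in rbohD local leaves had normalized counts of 232, 278 and 292 at 0 min, 21.4, 16.8 and 25.9 at 2 min, 133, 130.3 and 164 at 4 min and 178, 192 and 174 at 8 min. BZIP61 in WT local leaves had 76.5, 72.5 and 73.6 at 0 min, 319, 312 and 332 at 2 min, 74, 117 and 82.4 at 4 min and 63.4, 80.5 and 82.3 at 8 min. The rbohD libraries at 2 min were below all others of their table, and the WT libraries at 2 min were above all others of the table. BZIP61 in rbohD systemic leaves had 449, 483 and 517 at 0 min, 66.9, 54.6 and 67.4 at 2 min, 376, 357 and 351 at 4 min and 537, 532 and 495 at 8 min, against 111, 150.3 and 143 at 0 min, 773, 736 and 710.1 at 2 min, 114, 115 and 136 at 4 min and 159, 165 and 173 at 8 min in WT systemic leaves. Later, between 4 and 8 min, BZIP61 rose in systemic leaves by 0.53 ± 0.08 in rbohD and 0.45 ± 0.10 in WT (limma adjusted p = 1.16e-06 and 0.00127). In local leaves its change was 0.35 ± 0.13 in rbohD (limma adjusted p = 0.0493) and -0.25 ± 0.14 in WT (limma adjusted p = 0.161). The rbohD local call was lost with libraries rescaled (0.125), with no filter (0.0886), by DESeq2 (0.0557) and without several single libraries (up to 0.174). The WT local change passed the test without replicate 1 at 4 min (-0.39, adjusted p = 0.0411). GASA6 (AT1G74670, chr1:28053030-28054149, plus strand), a small secreted peptide of the gibberellin-regulated family, had normalized counts of 3131, 3327 and 3347 at 0 min, 569.9, 682 and 572 at 2 min, 1676, 1622 and 1658 at 4 min and 2047, 1949.9 and 2017 at 8 min in rbohD local leaves. GASA6 in WT local leaves had 1275, 1073 and 1309 at 0 min, 4591, 4288 and 4429 at 2 min, 1244, 1104 and 1335 at 4 min and 1035, 1082 and 1057 at 8 min. The 2 min libraries were the lowest of the rbohD table and the highest of the WT table. GASA6 in rbohD systemic leaves had 3085, 3519 and 3299 at 0 min, 850.0, 944 and 945 at 2 min, 2696, 2555 and 2664 at 4 min and 2767, 2951 and 2847 at 8 min, against 1605, 1457 and 1552 at 0 min, 6007, 5065 and 5615 at 2 min, 1523, 1448 and 1604 at 4 min and 1411, 1340.2 and 1377 at 8 min in WT systemic leaves. Between 4 and 8 min GASA6 rose in rbohD, locally by 0.28 ± 0.05 and systemically by 0.11 ± 0.04 (limma adjusted p = 6.85e-05 and 0.0438), and in WT the change was -0.21 ± 0.07 locally and -0.15 ± 0.06 systemically, lower in both (limma adjusted p = 0.0135 and 0.0384). The WT local call was lost without replicate 3 at 4 min (adjusted p = 0.108), and both systemic calls were lost with no filter (0.0987 in rbohD and 0.059 in WT), by DESeq2 (0.0664 and 0.0594) and without single libraries of their tables.

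LYK3 (AT1G51940, chr1:19295820-19299169, minus strand), a LysM receptor kinase, in rbohD local leaves had normalized counts of 147, 128 and 135 at 0 min, 20.4, 22.1 and 22.1 at 2 min, 87.2, 79 and 83.4 at 4 min and 119, 132 and 148 at 8 min. LYK3 in WT local leaves had 36.5, 40.8 and 32.9 at 0 min, 111, 111 and 118 at 2 min, 52.9, 34.2 and 47.6 at 4 min and 46.6, 33.3 and 46.5 at 8 min. LYK3 was lowest at 2 min in rbohD and highest at 2 min in WT, with no overlap to any other time. LYK3 in rbohD systemic leaves had 222, 236 and 207 at 0 min, 28.8, 33.2 and 29.4 at 2 min, 98.6, 102 and 109 at 4 min and 208, 189 and 198 at 8 min, against 49.5, 52.1 and 61.2 at 0 min, 169.9, 178 and 187 at 2 min, 59.2, 49.2 and 51.6 at 4 min and 87.3, 75.1 and 84.7 at 8 min in WT systemic leaves. Between 4 and 8 min LYK3 rose by 0.67 ± 0.13 and 0.94 ± 0.11 in local and systemic leaves of rbohD (limma adjusted p = 0.000216 and 1.48e-08), and by 0.62 ± 0.13 in WT systemic leaves (limma adjusted p = 0.000505). The genotype difference in local leaves was 0.75 ± 0.21 (limma adjusted p = 0.00509). The group also held FLS2, the receptor of bacterial flagellin, which changed at 2 min by -1.41 and -1.39 in rbohD local and systemic leaves, against 0.94 and 1.14 in WT, and AT1G63880, a TIR-NBS-LRR resistance protein. FLS2 overlaps an opposite gene at up to 192% of its level, so its values are uncertain.

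AT3G07010 (chr3:2212289-2216483, minus strand), a pectin lyase-like protein, had normalized counts of 464, 526 and 529 at 0 min, 135, 145 and 136 at 2 min, 208, 206 and 199 at 4 min and 284, 281 and 254 at 8 min in rbohD local leaves. AT3G07010 in WT local leaves had 180.4, 232 and 187 at 0 min, 573, 581 and 568 at 2 min, 150.3, 157 and 163 at 4 min and 178, 189.6 and 199 at 8 min. The 2 min libraries were the lowest of the rbohD table and the highest of the WT table. AT3G07010 in rbohD systemic leaves had 687, 609 and 559 at 0 min, 237, 204 and 211 at 2 min, 370.2, 377 and 432 at 4 min and 493, 483 and 476 at 8 min, against 265, 302 and 282 at 0 min, 911, 948 and 904 at 2 min, 198, 171 and 201.2 at 4 min and 330.0, 305 and 349 at 8 min in WT systemic leaves. AT3G07010 rose from 4 to 8 min in all 4 tables, by 0.41 ± 0.08 in rbohD local, 0.30 ± 0.07 in rbohD systemic, 0.27 ± 0.09 in WT local and 0.78 ± 0.08 in WT systemic leaves (limma adjusted p = 9.2e-05, 0.000962, 0.0167 and 2.64e-08). The WT local call was lost by DESeq2 (adjusted p = 0.0626) and without replicate 1 at 4 min (0.0612) or replicate 3 at 8 min (0.0765). Transport was represented by STP14 and TMT1, which carry sugars across the plasma membrane and the tonoplast, AT5G14120 of the major facilitator family, AT4G27870 of the vacuolar iron transporter family and AT4G36850, a PQ-loop protein. AT4G36850 (chr4:17353291-17356037, minus strand) in rbohD local leaves had normalized counts of 636, 614 and 566 at 0 min, 199, 248 and 227 at 2 min, 391, 389 and 319 at 4 min and 467, 400.4 and 482 at 8 min. AT4G36850 in WT local leaves had 448, 503 and 439.9 at 0 min, 903, 905 and 858 at 2 min, 449, 462 and 341 at 4 min and 312, 271 and 303 at 8 min. In WT the 8 min libraries were the lowest, and in rbohD the 2 min libraries were. AT4G36850 in rbohD systemic leaves had 702, 736 and 684 at 0 min, 314, 299 and 282 at 2 min, 687, 652 and 651 at 4 min and 859, 735 and 768 at 8 min, against 552, 509 and 413 at 0 min, 2330.1, 2269 and 2328 at 2 min, 550.0, 521 and 479 at 4 min and 416, 442 and 449.6 at 8 min in WT systemic leaves. The genotype difference from 4 to 8 min in local leaves was 0.79 ± 0.13 (limma adjusted p = 8.53e-06), the most positive of all members in local leaves.

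**Figure D3:**
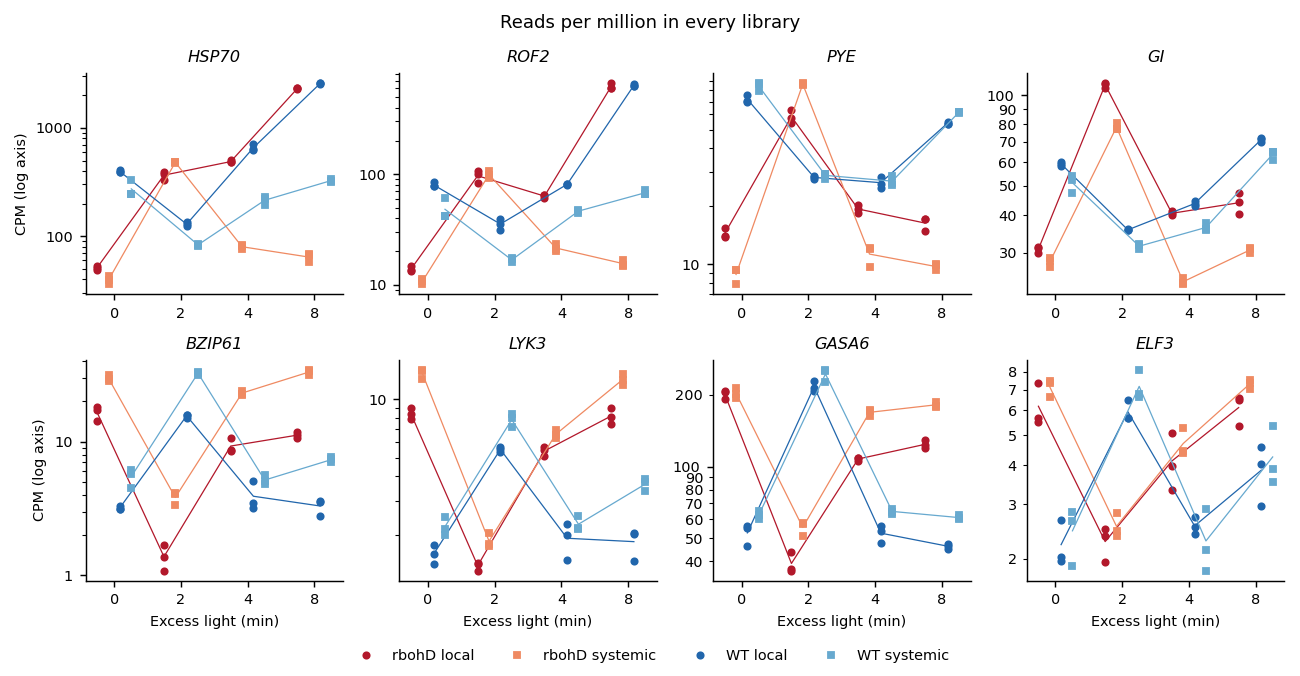
CPM (y axis, log scale) of 4 rbohD-high transcripts (upper row) and 4 rbohD-low transcripts (lower row) against time of excess light in min, with 1 point per library and lines through the group means. In the upper row the rbohD points (red) are above their 0 min level at 2 min and the WT points (blue) below theirs, and in the lower row the reverse, as for LYK3.

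AT2G15960 (chr2:6947096-6947866, plus strand), annotated as a stress-induced protein, in rbohD local leaves had normalized counts of 354, 379 and 369.6 at 0 min, 109.9, 128 and 115 at 2 min, 247, 237 and 235 at 4 min and 251, 222 and 195 at 8 min. AT2G15960 in WT local leaves had 138, 131 and 131 at 0 min, 274, 339 and 312 at 2 min, 116, 131 and 150.1 at 4 min and 138, 119 and 143 at 8 min. The 2 min libraries were the lowest of the rbohD table and the highest of the WT table. AT2G15960 in rbohD systemic leaves had 254, 286 and 251 at 0 min, 60.7, 83.6 and 68.6 at 2 min, 241, 210.2 and 177 at 4 min and 296, 251 and 253 at 8 min, against 139.9, 152 and 131 at 0 min, 239, 215 and 265 at 2 min, 182, 166 and 161 at 4 min and 100.2, 102 and 95.7 at 8 min in WT systemic leaves. Between 4 and 8 min AT2G15960 rose by 0.35 ± 0.11 in rbohD systemic leaves (limma adjusted p = 0.012), a call lost without replicate 3 at 4 min (0.155) or replicate 1 at 8 min (0.103), and fell by 0.77 in WT systemic leaves (limma adjusted p = 1.73e-06). In systemic leaves the genotype difference of 1.12 ± 0.16 (limma adjusted p = 2.71e-07) was the most positive of all members in systemic leaves.

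AT2G15960 and 3 other rbohD-low genes carry the evening element, the clock motif AAAATATCT, in the 250 bases before the annotated gene start (either strand). It was found in 4 of 24 rbohD-low genes (16.7%) and 0 of 44 rbohD-high genes, against 2.37% of the 13741 genes with the required mean and a full window. The stretches that hold it are given from the RefSeq TAIR10.1 sequence, in the direction of transcription, with the element or its reverse complement in capitals.
AT2G15960 (chr2:6946948-6947095, plus strand): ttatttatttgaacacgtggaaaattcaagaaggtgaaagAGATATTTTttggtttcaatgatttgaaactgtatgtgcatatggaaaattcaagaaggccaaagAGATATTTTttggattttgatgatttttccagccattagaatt
AT4G31050 (chr4:15114124-15114212, plus strand): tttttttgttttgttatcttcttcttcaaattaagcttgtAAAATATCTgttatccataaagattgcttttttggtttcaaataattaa
STP14 (chr1:29012124-29012212, minus strand): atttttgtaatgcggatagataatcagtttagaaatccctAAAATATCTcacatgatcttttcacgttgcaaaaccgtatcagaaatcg
AT2G30600 (chr2:13036759-13036813, plus strand): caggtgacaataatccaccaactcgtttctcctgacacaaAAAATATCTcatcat
AT2G15960 holds the element at 2 places, each time as its reverse complement, and the other 3 genes (AT4G31050, a biotin/lipoate ligase family protein, STP14, and AT2G30600, a BTB/POZ protein) hold it once. A match is only a match of letters in this window, and the list of motifs was drawn up with earlier results of these data known. Among the other motifs searched on both strands, the G-box CACGTG was found in 12.5% of rbohD-low, 9.09% of rbohD-high and 7.66% of all windows, the W-box core TTGAC in 41.7%, 45.5% and 43.9%, and the heat shock element GAANNTTC in 12.5%, 6.82% and 9.15%. The DRE core CCGAC stood at 4.17%, 13.6% and 13.4%, the CAM-box core CGCGT at 0%, 9.09% and 7.36%, and the TATA box TATAAA at 29.2%, 45.5% and 45.2%. For the site II element TGGGC the shares were 25%, 13.6% and 28.1%, for the I-box GATAAG 8.33%, 13.6% and 12.6%, and for the telo-box AAACCCTA 4.17%, 2.27% and 3.70%. A second form of the heat shock element, TTCNNGAA, stood at 8.33%, 9.09% and 7.52%.

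The members had mostly returned towards their 0 min level at 4 min, as had most transcripts with a change of at least 0.7 in size at 2 min. In the rbohD-high group the change at 4 min was under 0.5 times that at 2 min for 27 of 44 in rbohD local, 40 of 44 in rbohD systemic, 36 of 44 in WT local and 33 of 44 in WT systemic leaves. In the rbohD-low group this held for 17 of 24 in rbohD local, 20 of 24 in rbohD systemic, 21 of 24 in WT local and 21 of 24 in WT systemic leaves. Among all transcripts of the required mean with a change of at least 0.7 in size at 2 min, the shares were 65.0% in rbohD local, 88.6% in rbohD systemic, 90.2% in WT local and 83.2% in WT systemic leaves. In the same order they were 61.4%, 90.9%, 81.8% and 75% in the rbohD-high and 70.8%, 83.3%, 87.5% and 87.5% in the rbohD-low group. The shares of the members thus lay on both sides of those of all such transcripts. These changes share their 0 min libraries with the rule and were not tested.

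The level in rbohD against that in WT also differed between times. The tables were normalized separately and genotype coincides with experiment, so CPM of the recovered reads are compared here without a test. In the rbohD-high group the median log2 ratio of rbohD to WT at 0, 2, 4 and 8 min was -1.23, 0.82, -0.40 and -0.44 in local leaves, and in systemic leaves -1.29, 1.06, -0.73 and -0.83. In the rbohD-low group it was 1.33, -1.23, 1.00 and 1.01 in local leaves and 1.22, -1.36, 0.91 and 0.88 in systemic leaves. The medians were thus on one side of WT at 0, 4 and 8 min and on the other side at 2 min. Single rbohD-high members went against this, with a mean above WT for 4 in local and 3 in systemic leaves at 4 min and for 5 and 2 at 8 min. At 4 min, whose libraries entered the rule only through the required mean, all 3 rbohD libraries were below all 3 WT libraries for 35 of 44 rbohD-high members in local and 41 of 44 in systemic leaves, against 14.3% and 19.5% of the 13766 transcripts. At 8 min this held for 38 of 44 in local and 40 of 44 in systemic leaves, against 28.9% and 35.3% of all transcripts. For the rbohD-low members all rbohD libraries were above all WT libraries in 24 of 24 in both leaves at 4 min, against 46.9% (local) and 39.8% (systemic) of all transcripts, and in 23 of 24 in both leaves at 8 min, against 37.6% and 39.6%. At 0 min, which the rule used, all rbohD libraries were below all WT libraries for 43 (local) and 44 (systemic) of 44 rbohD-high members, against 28% and 23.7% of all transcripts, and above them for 24 of 24 rbohD-low members in both leaves, against 38.4% and 43.8%. At 2 min, also used, the rbohD libraries were above for 43 of 44 rbohD-high members in both leaves, against 28.3% and 30.6%, and below for 24 of 24 rbohD-low members in both leaves, against 31.7% and 28.8%. Over all 13766 transcripts the rbohD to WT log2 ratios of local leaves at 0 and 8 min had a Pearson r of 0.84, and those at 0 and 4 min 0.65, while those at 0 and 2 min had an r of -0.03. In systemic leaves the values were 0.67 for 0 and 8 min, 0.84 for 0 and 4 min and -0.07 for 0 and 2 min. These correlations run across genes of the same libraries and are a description. Levels at 4 and 8 min thus went with those at 0 min, which the rule used. The counts of members at 4 and 8 min are therefore not independent of the rule. The 2 min groups thus stood apart from the other times in the genotype comparison for transcripts in general, and the part of this in the members' changes was not tested.

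**Figure D4:**
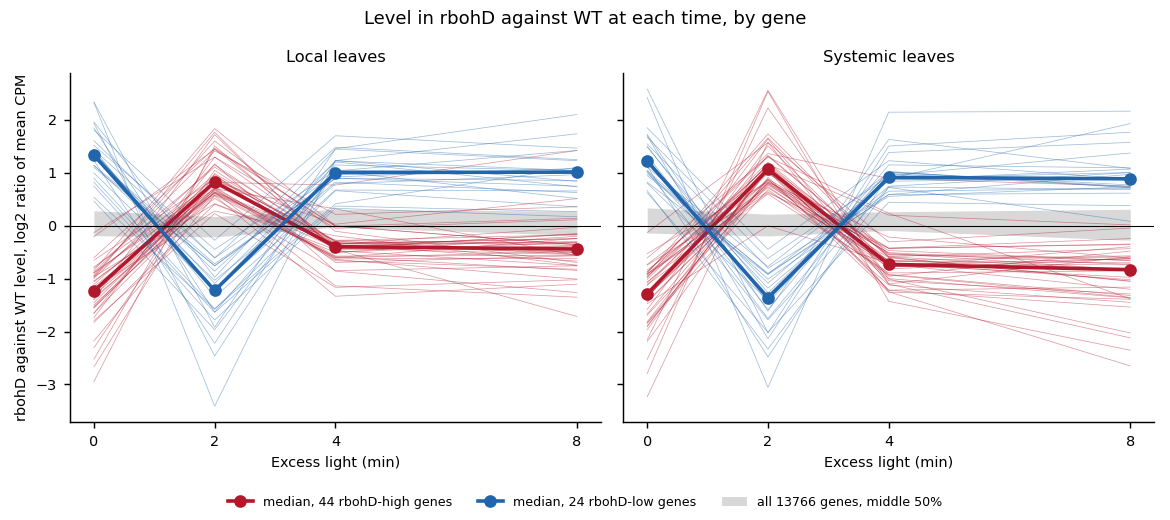
Log2 ratio of CPM in rbohD to that in WT (y axis) against time of excess light in min, local leaves left and systemic leaves right. Thin lines are single members, as the log2 ratio of mean CPM. Thick lines are the medians of the 44 rbohD-high (red) and 24 rbohD-low (blue) transcripts, and the grey band spans the middle 50% of all 13766 transcripts. Medians and band are of the difference of mean log2(CPM + 0.1). In local leaves the red median runs through -1.23, 0.82, -0.40 and -0.44 and the blue through 1.33, -1.23, 1.00 and 1.01.

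All 68 members passed the filter of the test between 4 and 8 min in all 4 tables. In rbohD local leaves 25 members rose and 14 fell, 57.4% of the 68, against 28.1% of all genes tested (14.8% rose, 13.4% fell) and 31.7% of the 13766 transcripts (17% rose, 14.7% fell). The 14 that fell became 9 without replicate 1 or replicate 2 of the rbohD local 4 min libraries and 7 without replicate 1 of the 8 min libraries. In rbohD systemic leaves 17 rose and 15 fell (47.1%), against 23.4% of all genes tested (11.8% rose, 11.5% fell) and 27% of the 13766. In WT local leaves 27 rose and 18 fell (66.2%), against 38.9% of all genes tested (19% rose, 19.9% fell) and 44.5% of the 13766 (19.9% rose, 24.5% fell). In WT systemic leaves 25 rose and 20 fell (66.2%), against 40% of all genes tested (21.5% rose, 18.5% fell) and 45% of the 13766 (22.2% rose, 22.8% fell). With the libraries rescaled to one total, the share of rises among all calls was 29.9% in rbohD local leaves, against 52.5% without rescaling, and 67.5% in WT systemic leaves, against 53.8%. In rbohD systemic leaves the counts of the groups lay on opposite sides, with 14 of 24 rbohD-low members rising and 1 falling (AT5G14120), and 3 of 44 rbohD-high members rising (GI, C4H and RSR4) and 14 falling, beside 14% of the 13766 transcripts that rose and 12.9% that fell. The median change there was 0.20 in the rbohD-low and -0.11 in the rbohD-high group, against 0.01 over all genes tested. At 4 min in rbohD systemic leaves, 24 of 24 rbohD-low and 42 of 44 rbohD-high members still had the sign of their 2 min change. Their median changes from 0 min were -0.29 and 0.32 at 4 min and -0.13 and 0.20 at 8 min. The counts there can thus hold a continued return from the change the rule selected, and the part of that return was not tested. In the other tables the members moved both ways: of the rbohD-low group 8 rose and 5 fell in rbohD local, 6 rose and 7 fell in WT local and 9 rose and 4 fell in WT systemic leaves, and of the rbohD-high group 17 rose and 9 fell, 21 rose and 11 fell, and 16 rose and 16 fell.

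Whether the genotypes also differed between 4 and 8 min was tested on the 24 libraries of each leaf, as the change in rbohD minus the change in WT. In local leaves the difference was positive for 22 members and negative for 8, together 44.1%, against 40.5% of all genes tested (20.8% positive, 19.7% negative) and 46.5% of the 13766 transcripts (25.3% and 21.2%). In systemic leaves it was positive for 10 and negative for 16, together 38.2%, against 40.5% of all genes tested (20.1% positive) and 45.9% of the 13766 (24.2% and 21.7%). These shares were thus near or below the background. By direction, 32.4% of the members were positive in local leaves, against 25.3% of the 13766 transcripts, and 23.5% were negative in systemic leaves, against 21.7%. The local counts depended on 1 choice and 1 library, with 14 positive and 13 negative once libraries were rescaled, and 5 negative without replicate 2 of the rbohD local 4 min libraries. Rescaling also moved the share of positive differences among all calls to 34.1% in local and 37.5% in systemic leaves, against 51.4% and 49.5% without it. Of the rbohD-low group, 6 were positive and 2 negative in local leaves and 4 and 4 in systemic leaves. Of the rbohD-high group, 16 were positive and 6 negative in local leaves and 6 and 12 in systemic leaves. Hop3, at -0.95 ± 0.14 in systemic leaves (limma adjusted p = 5.19e-07), was the most negative after AtCDC48B and PYE.

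**Figure D5:**
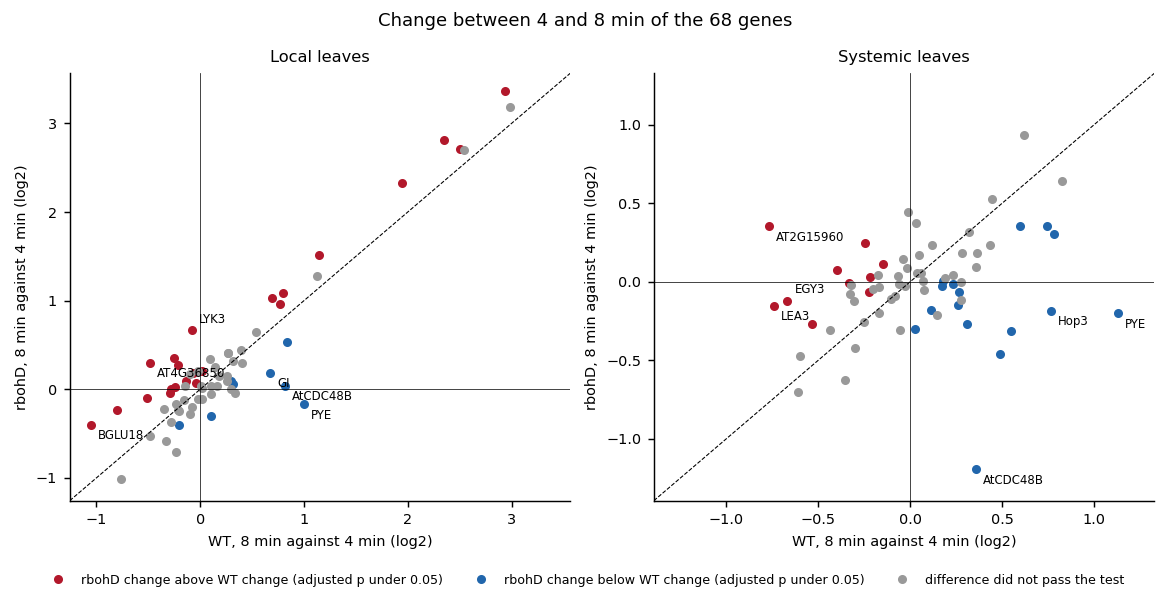
Change from 4 to 8 min in rbohD (y axis) against that in WT (x axis), both as log2 differences, of the 68 members in local (left) and systemic leaves (right), with a dashed line where both are equal. Red points lie above and blue points below the line with an adjusted p under 0.05 for the genotype difference (22 and 8 in local, 10 and 16 in systemic leaves), and grey points did not pass the test.

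All 68 are annotated as protein-coding, and all 5 chromosomes hold members of both groups. The pair of members nearest to each other on a chromosome, RSR4 and AIRP2, are 32769 bp apart. Median gene length was 2819 bp in the rbohD-low and 2688 bp in the rbohD-high group, against 2608 bp for the transcripts of the required mean. An overlap with a gene on the opposite strand was annotated for 10 of 24 rbohD-low and 11 of 44 rbohD-high members, against 27.6% of the transcripts of the required mean. The overlapping gene reached a level above that of the member in a table for Hop3, TPR2, AT1G33700, AT2G41050, WNK6, FLS2 and TMT1, and their values are uncertain.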

How the data were processed

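RNA was sequenced from 48 pools of leaves, in 16 groups of 3 replicates taken from the labels. The authors checked reads with FastQC 0.11.7, aligned them to TAIR10 with STAR 2.4.0.1 and deposited, per table of 12 libraries, counts per gene divided by DESeq2 1.20.0 size factors, a signal that is not a raw count. The libraries were stranded and the aligner kept its default limit on positions per read. How the counting step treated strand and reads with several positions is not given in the sources used here. The deposited signal was a whole multiple of 1 step per library for 100% of values (tolerance 0.05 reads), which gave the read totals and CPM. With limma 3.58.1 in R 4.3.3 a test with a mean-variance trend was run on log2(normalized count + 1), after a filter of at least 10 in at least 3 libraries, on all 12 libraries of a table for 8 against 4 min and on 24 for the genotype difference, with Benjamini-Hochberg adjustment over all genes and a threshold of 0.05. The test was checked on simulated data. Alternatives were a pseudocount of 5, no filter, rescaling to one total, edgeR 4.0.16 and DESeq2 1.42.0 on recovered reads, a replicate block, the 4 and 8 min libraries alone, and each library left out. On the recovered reads edgeR called 5159 genes in rbohD local, 4432 in rbohD systemic, 7156 in WT local and 7509 in WT systemic leaves, against 4930, 4114, 7023 and 7259 by limma.

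The members and gene lists were chosen with earlier results of these data known. The roles, the phenylpropanoid and HSP70 and HSP90 lists and 1 motif were added after the members were seen. Values in every library are given for the 5 members per group with the largest smallest change at 2 min, for members on a gene list, and for the 3 most positive and 3 most negative genotype differences per leaf that passed the test. Gene positions and sequences are from RefSeq TAIR10.1. The methods of the study name the replicates as biological repeats, each a pool of leaves from many plants, so p-values measure the spread between such pools and not between plants.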

Additional observations from a re-analysis of the deposited data

Results flagged for a closer look

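The change from 4 to 8 min differed between rbohD and WT, by the limma test of the difference itself, for 22 members with a positive and 8 with a negative difference in local leaves, and for 10 with a positive and 16 with a negative difference in systemic leaves. Over the 13766 transcripts 46.5% were called in local and 45.9% in systemic leaves, and with libraries rescaled the members counted 14 positive and 13 negative in local and 8 positive and 23 negative in systemic leaves. The differences below are rbohD minus WT on the log2 scale, each past an adjusted p of 0.05.

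In local leaves they were positive for AT4G36850 (0.79), LYK3 (0.75) and BGLU18 (0.66) and negative for PYE (-1.17), AtCDC48B (-0.78) and GI (-0.49). In systemic leaves they were positive for AT2G15960 (1.12), LEA3 (0.59) and EGY3 (0.55) and negative for AtCDC48B (-1.55), PYE (-1.33) and Hop3 (-0.95). BGLU18 was not past the threshold without replicate 2 of the rbohD local 8 min libraries, where it was 0.30 (adjusted p = 0.0882). AtCDC48B and PYE were thus negative in both leaves.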

How the results depend on the processing

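The number of members was 187 at a threshold of 0.5 and 19 at a threshold of 1, and between 65 and 73 with 1 library left out. Members that fell in rbohD local leaves numbered 14, against 9 with no filter, 9 by DESeq2 and between 7 and 14 with 1 library left out. The genotype difference in local leaves was positive for 14 and negative for 13 members after rescaling, against 22 and 8, and the negative count lay between 5 and 9 with 1 library left out. Replicate numbers did not pair the samples (correlations of deviations at 4 and 8 min between -0.029 and 0.053), and a replicate block gave 25 rises and 15 falls in rbohD local leaves and 23 positive and 9 negative genotype differences in local leaves. For single genes with a library left out, 1674 values kept direction and side of the threshold, 46 lost and 8 gained the call, and under the other settings 732 kept them, 16 lost and 8 gained it. The causes were not tested. Genotype coincides with experiment and table, and the sampling hour of each library is not in the labels, though the study's methods give the same time of day for all experiments.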
